A study of Mus musculus with 6 samples.

Results

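MAP kinases and protein phosphatases were described in adipose stromal cells, the fibroblast-like progenitors of fat tissue, from perigonadal and from subcutaneous fat of the mouse. The members were taken from the authors' deposited table of their paired test between the depots, as all its entries whose gene symbol begins with Mapk, Map2k, Map3k, Map4k, Dusp, Ptpn, Ptpr, Ppp and a digit, or Ppm1. That gave 43 probe sets of 38 genes, out of 3541 probe sets of the table that have array values and 23531 on the array. No Map4k gene was among them. The table holds only probe sets that the authors' test had selected, so every member was chosen by its difference between the depots. The differences are therefore given as a description, and family members outside the table were not analysed here.

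Cells came from perigonadal adipose tissue (3 pools) and subcutaneous adipose tissue (3 pools) of male mice, with 1 array per pool. They were used fresh, after enzymatic digestion and magnetic sorting for cells without the leukocyte marker CD45 or the endothelial marker CD31 and with the progenitor marker Sca1. The series describes 6 animals, pooled by tissue, and independent pools. The labels give no strain, age, genotype or treatment, and do not say whether pools with the same number shared animals.

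MAP kinase pathways pass signals from growth factors, cytokines and stress down a chain in which a MAP3K phosphorylates a MAP2K and the MAP2K phosphorylates a MAP kinase. The ERK arm is best known for growth factor responses, the p38 and JNK arms for stress and cytokine responses, and ERK5 forms a further arm. Dual-specificity phosphatases (DUSP) switch the MAP kinases off, tyrosine phosphatases act on receptors and adaptors upstream, and the serine/threonine phosphatases PP1 and PP2A get their targets from regulatory subunits. In fat precursors these pathways are known to take part in proliferation and in the decision to become an adipocyte.

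The stretches before the starts of 4 genes are shown because these genes had the largest differences of the whole set (Ppp1r14a) and of the DUSP phosphatases (Dusp10, Dusp7 and Dusp6). Each is the 250 bases before the start annotated in RefSeq on build GRCm38.p6, on the plus strand, written 5′ to 3′. Ppp1r14a lies at chr7:29289070-29289319, Dusp10 at chr1:184034131-184034380, Dusp7 at chr9:106368382-106368631 and Dusp6 at chr10:99262981-99263230. Capitals mark the motif GGGCGG, the core of the Sp1 site, on either strand.
Ppp1r14a: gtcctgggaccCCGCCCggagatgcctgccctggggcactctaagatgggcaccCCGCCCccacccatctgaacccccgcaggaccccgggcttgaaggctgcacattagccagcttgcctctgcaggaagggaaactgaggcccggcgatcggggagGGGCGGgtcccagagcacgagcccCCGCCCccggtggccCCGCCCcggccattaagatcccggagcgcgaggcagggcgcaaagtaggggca
Dusp10: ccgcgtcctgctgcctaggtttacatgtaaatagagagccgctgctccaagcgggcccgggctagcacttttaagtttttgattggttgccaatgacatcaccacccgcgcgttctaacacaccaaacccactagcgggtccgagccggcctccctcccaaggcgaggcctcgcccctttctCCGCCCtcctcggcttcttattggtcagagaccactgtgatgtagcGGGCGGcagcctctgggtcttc
Dusp7: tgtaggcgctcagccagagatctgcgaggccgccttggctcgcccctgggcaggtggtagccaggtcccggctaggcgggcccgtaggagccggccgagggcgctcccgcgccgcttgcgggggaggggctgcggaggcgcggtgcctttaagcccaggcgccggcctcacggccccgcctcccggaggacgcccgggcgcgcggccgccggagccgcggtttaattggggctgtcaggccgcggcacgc
Dusp6: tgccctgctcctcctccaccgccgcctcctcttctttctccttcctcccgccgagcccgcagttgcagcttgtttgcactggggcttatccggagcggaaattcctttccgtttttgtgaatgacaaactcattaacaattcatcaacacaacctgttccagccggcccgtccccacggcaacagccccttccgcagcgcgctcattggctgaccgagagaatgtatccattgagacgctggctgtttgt
The motif occurred at 5 places before Ppp1r14a and at 2 before Dusp10, and these letters were not in the windows of Dusp7 and Dusp6. RefSeq gave such windows for 30 of the 38 member genes (39 windows, since some genes have several starts). GGGCGG was in 27 of these 39, against 32.7% of all 32851 windows. The motif is made of G and C alone, and the median GC content was 61.6% in the member windows and 52.4% in all windows. The AP-1 motif TGANTCA was in 1 member window (Map3k10) against 6.75% of all, and the CRE motif TGACGTCA in 1 (Ppm1d) against 1.55%. The Ets core CCGGAAG was in 2 (Mapk8ip3 and Ppp2r1a) against 6.91%, and TATAAA in 2 (Ppp1r10 and Ppp1r2) against 12.4%. The CArG box bound by SRF was in none of the member windows and in 1.47% of all. Both strands were searched, and none of these motifs overlapped another in the windows printed.

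Levels are the authors' normalized intensities on a linear scale. The median intensity of an array lay between 6.51 and 6.96 in perigonadal pools and between 6.44 and 6.92 in subcutaneous pools, and 38 of the 43 member probe sets were above the median on all 6 arrays. Levels of different probe sets are not comparable. Markers had a name only through the authors' table, so each was chosen for its difference between the depots. Sums of named markers therefore do not measure cell content. Of 12 stromal markers, 6 had a name here and their summed intensity was 2041 to 2278 in perigonadal and 3312 to 3520 in subcutaneous pools. Ly6a, which encodes Sca1, averaged 479 ± 44.0 in perigonadal and 552 ± 59.5 in subcutaneous pools (SD, n = 3 each). Of 18 leukocyte markers, 3 had a name, and they summed to 10.1 to 11.99 in perigonadal and 7.75 to 8.84 in subcutaneous pools, a gap that came from Fcer1g. Of 13 endothelial markers, 2 had a name and summed to 134 to 137 in perigonadal and 162 to 176 in subcutaneous pools, with Tek lower (-0.76) and Eng higher (0.54). The genes for CD45 and CD31 had no name here. No mature adipocyte marker of 9 had one.

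A difference is the log2(intensity + 1) of a perigonadal pool less that of the subcutaneous pool with the same number, given as the mean of 3 pool pairs ± SE from limma. A probe set passed when its Benjamini-Hochberg adjusted p in limma, over all 23531 probe sets and with the pool number as a block, was below 0.05. The median member difference was -0.10, against -0.01 over all probe sets and -0.13 over the 3541 probe sets of the authors' table. The differences ranged from -1.04 to 2.55, with a median absolute size of 0.42, against 0.37 in that table. Of the 43 probe sets, 10 passed as higher in perigonadal pools, 14 passed as lower and 19 did not pass. Leaving out pool pair 1 left 3 that passed as higher and 6 as lower, and leaving out pool pair 2 left 4 and 8. Over the whole array 4.05% passed as higher and 5.47% as lower (9.51% in all), and among the probe sets selected by the authors these shares were 22.1% and 29.6%. The members were selected on this contrast, so nothing is read from these counts. The pools of the depots did not overlap for 38 of the 43, against 25.1% of all probe sets and 81.3% of those in the table. Each of the 43 had the same sign in 3 of 3 pool pairs. In pooled cells, a lower level in each cell and fewer cells that express a gene cannot be told apart.

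Most members differed by well under 2-fold. Only Ppp1r14a, Dusp10 and Dusp7 differed by at least 1 on the log2 scale, against 2.21% of all probe sets and 14.2% of those in the table. By role, 1 of the 11 kinase, substrate kinase and scaffold probe sets passed as higher and 2 as lower. Of the 32 probe sets of phosphatases and their subunits, 9 passed as higher and 12 as lower.

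**Figure D1:**
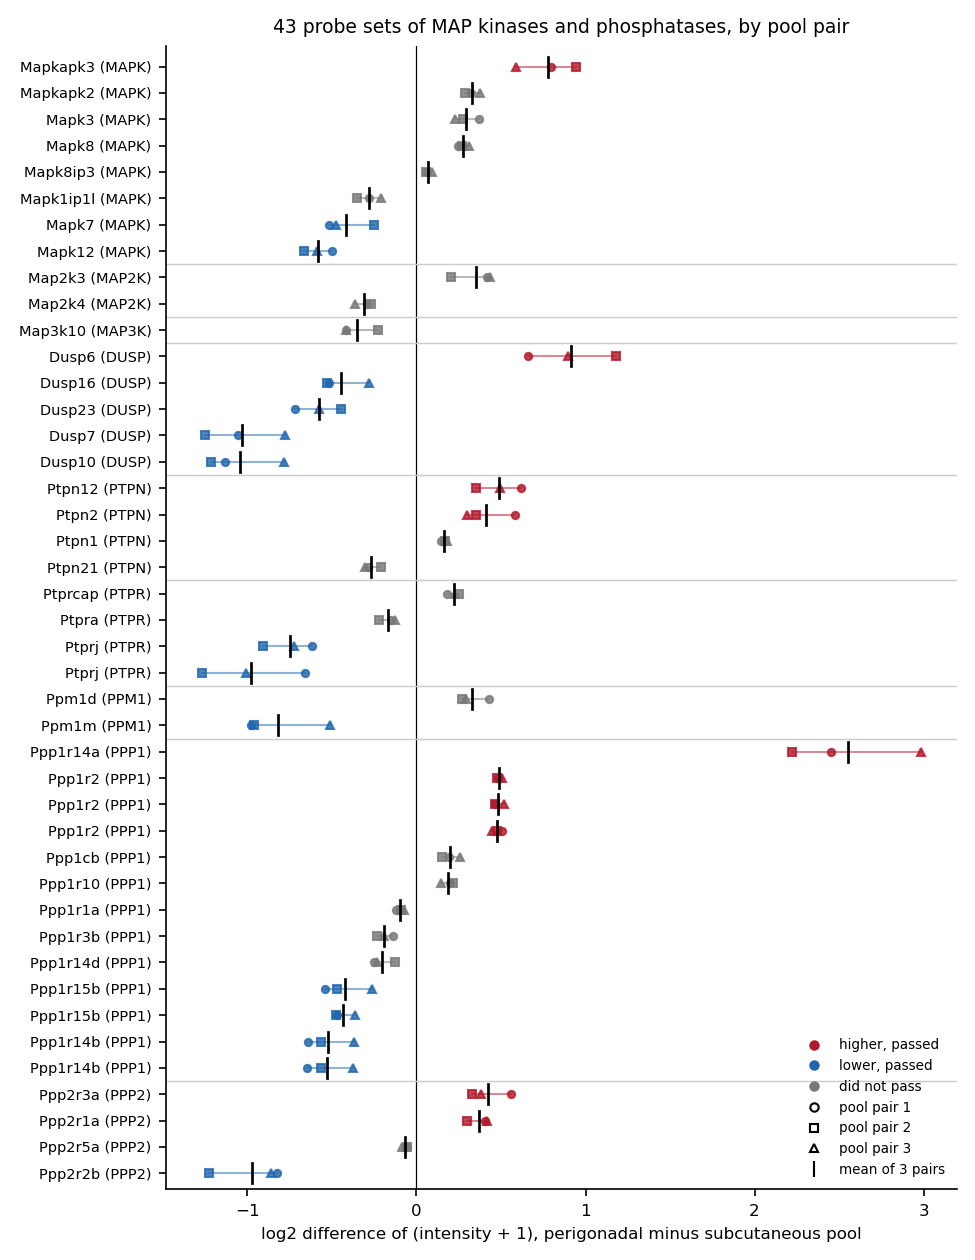
Log2 difference of (intensity + 1), perigonadal minus subcutaneous pool (horizontal axis), for each of the 43 member probe sets, grouped by role. Circles, squares and triangles are pool pairs 1, 2 and 3, the black tick is their mean, red and blue mark probe sets that passed as higher or lower and grey those that did not. Ppp1r14a stands furthest to the right at 2.55, and every probe set keeps to one side of 0.

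Among the kinases, members of the p38 and JNK arms lay on both sides. Mapkapk3, a kinase activated by p38, had intensities of 21.17, 21.87 and 19.81 in perigonadal pools 1 to 3, against 11.77, 10.91 and 12.82 in subcutaneous pools 1 to 3. All 3 perigonadal pools were above all 3 subcutaneous pools, and the log2 difference was 0.78 ± 0.10, or 0.41 with a pseudocount of 16. The related Mapkapk2, which also acts below p38, was at 83.8 ± 9.66 in perigonadal and 66.5 ± 6.11 in subcutaneous pools (SD, n = 3 each), a difference of 0.33 that did not pass. Map2k3, a kinase that phosphorylates p38, had 71.08, 77.88 and 88.53 in perigonadal against 52.98, 67.49 and 65.14 in subcutaneous pools. The ranges were apart but close, and its difference of 0.35 ± 0.09 did not pass.

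Mapk12 encodes p38 gamma, the form best known from skeletal muscle. Its intensities were 11.06, 10.09 and 11.40 in perigonadal and 16.02, 16.58 and 17.66 in subcutaneous pools. The pools were apart, with all perigonadal values lower and a difference of -0.58 ± 0.09 that passed and was -0.29 with a pseudocount of 16. Of these genes linked to p38, Mapkapk3 thus passed as higher and Mapk12 as lower. The positive differences of Map2k3 and Mapkapk2 did not pass.

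Mapk8, which encodes the kinase JNK1, averaged 29.1 ± 2.80 in perigonadal and 23.9 ± 1.77 in subcutaneous pools, a difference of 0.27 that did not pass. Map2k4, a kinase that activates JNK, had 16.86, 17.98 and 14.87 in perigonadal and 20.92, 21.84 and 19.46 in subcutaneous pools. It was lower in each perigonadal pool, with a difference of -0.31 ± 0.09 that did not pass. Map3k10, a mixed-lineage kinase above JNK, had 9.10, 8.76 and 8.53 in perigonadal and 12.46, 10.42 and 11.71 in subcutaneous pools. Its pools were apart as well, with a difference of -0.35 ± 0.09 that did not pass. It passed with no replicate block (-0.35), among brighter probe sets alone (-0.35) and without subcutaneous pool 2 (-0.42). The JNK scaffold gene Mapk8ip3 overlapped between depots and differed by 0.07.

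Mapk3, which encodes ERK1, averaged 125 ± 7.54 in perigonadal and 102 ± 9.39 in subcutaneous pools, a difference of 0.29 that did not pass. Mapk7, which encodes ERK5, had 15.16, 14.00 and 13.06 in perigonadal against 22.16, 16.89 and 18.53 in subcutaneous pools. The pools were apart and the difference of -0.42 ± 0.09 passed, but 12 of 14 other settings lost that call, with values from -0.50 to -0.23. These included the fit with no replicate block, a pseudocount of 16, and leaving out any 1 pool pair, any perigonadal pool, or subcutaneous pool 1 or 3. Mapk1ip1l, named for its likeness to a protein that binds MAP kinase 1 and not itself a kinase, differed by -0.28 and did not pass.

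The DUSP phosphatases had 4 lower members and 1 higher, and all 5 passed. All 5 had been selected on this contrast, so their count is not read as a trait of the family. Of all probe sets selected by the authors 22.1% passed as higher and 29.6% as lower, against 4.05% and 5.47% over the whole array. Dusp6, a cytoplasmic phosphatase of ERK whose own transcription is a well-known response to ERK activity, had 54.20, 53.14 and 54.68 in perigonadal and 33.94, 22.88 and 28.86 in subcutaneous pools. The perigonadal pools lay close together and all above the more scattered subcutaneous pools, with a difference of 0.91 ± 0.12. Dusp7, a close relative that also acts on ERK in the cytoplasm, went the other way. It had 36.56, 29.01 and 37.39 in perigonadal against 77.21, 70.47 and 64.86 in subcutaneous pools. The highest perigonadal pool was far below the lowest subcutaneous pool, and the difference was -1.03 ± 0.11.

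Dusp10, a phosphatase of JNK and p38 (chromosome 1, band H5), had 31.17, 36.99 and 40.56 in perigonadal and 69.60, 87.16 and 70.42 in subcutaneous pools. The depots were again apart, by -1.04 ± 0.11. Dusp16, which acts mainly on JNK, averaged 16.7 ± 0.907 in perigonadal and 23.1 ± 1.40 in subcutaneous pools (SD, n = 3 each), a difference of -0.44. Dusp23, a small atypical member of the family, averaged 8.87 ± 0.510 in perigonadal and 13.8 ± 2.15 in subcutaneous pools, a difference of -0.58. The Dusp16 call was lost without pool pair 1 (-0.41), without pool pair 2 (-0.40) and without subcutaneous pool 2 (-0.40), and that of Dusp23 without pool pair 1 (-0.51). With a pseudocount of 16 both differences were -0.26.

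**Figure D2:**
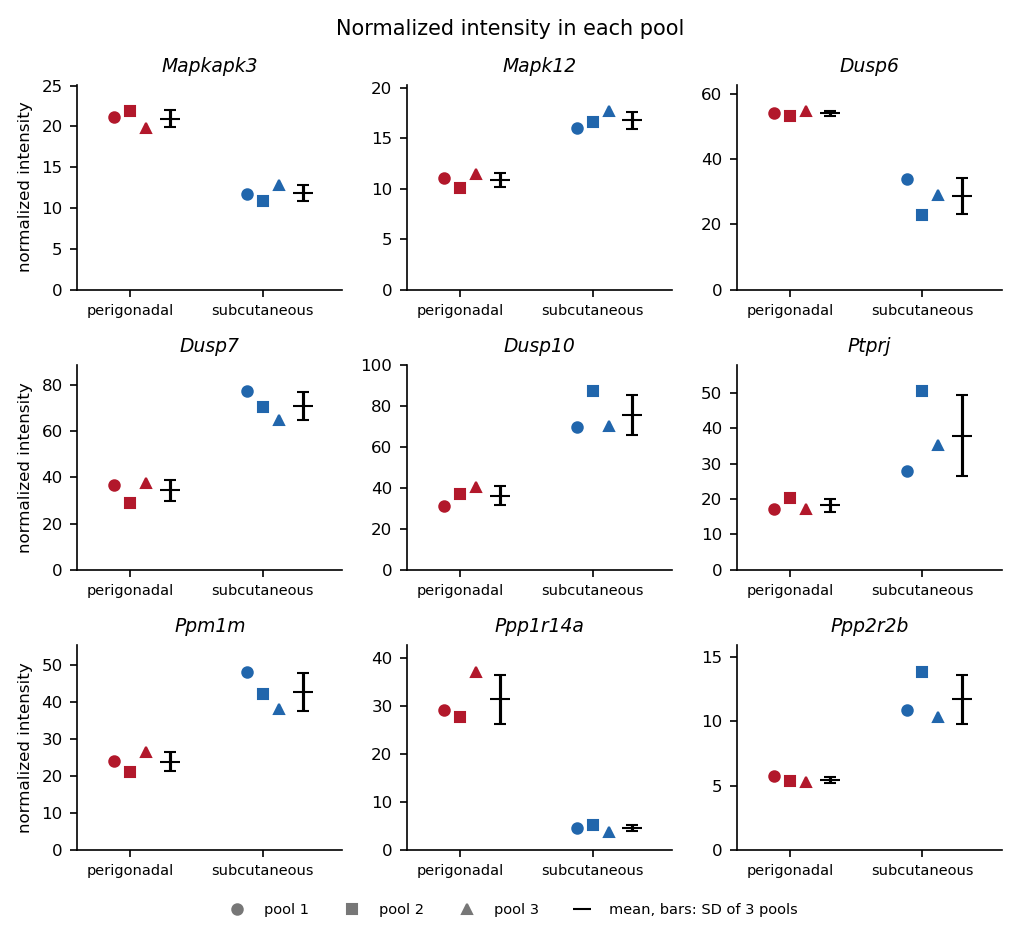
Normalized intensity (vertical axis, linear, starting at 0) of 9 members in the 3 perigonadal pools (red, left) and the 3 subcutaneous pools (blue, right). Markers give the pool number and the black bars the mean and SD of 3 pools. Dusp6, Mapkapk3 and Ppp1r14a have all perigonadal pools on top and the other 6 have them all below, and the Ptprj panel shows the probe set with the larger difference.

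Of the 4 non-receptor tyrosine phosphatases, 3 had positive differences. Ptpn12 (PTP-PEST), which acts on adhesion proteins, had 118.00, 124.58 and 117.36 in perigonadal and 76.38, 97.40 and 82.95 in subcutaneous pools. The depots were apart and the difference of 0.49 ± 0.09 passed, a call lost without pool pair 1, perigonadal pool 2, or subcutaneous pool 1 or 3 (0.41 to 0.59 over all settings). Ptpn2, a brake on JAK and STAT signalling, had 43.62, 43.66 and 38.93 in perigonadal and 28.83, 33.97 and 31.46 in subcutaneous pools. Its pools were apart too, and the difference of 0.41 ± 0.10 passed but was lost in 8 of 14 other settings (0.29 to 0.50), among them those without pool pair 1 or 2, perigonadal pool 1 or 2, or subcutaneous pool 1 or 3. Ptpn1 (PTP1B), which dephosphorylates the insulin receptor, differed by 0.16 and did not pass. Ptpn21 had 15.78, 14.75 and 13.03 in perigonadal and 19.45, 17.23 and 16.30 in subcutaneous pools, all perigonadal values being lower, with a difference of -0.27 ± 0.09 that did not pass.

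Among receptor-type genes, Ptprj was represented by a pair of probe sets. Ptprj (DEP-1) removes phosphate from growth factor receptors such as those for PDGF. Probe set 10484888 had 17.33, 20.37 and 17.07 in perigonadal against 28.00, 50.49 and 35.38 in subcutaneous pools, a difference of -0.98 ± 0.12 that was -0.64 with a pseudocount of 16. Probe set 10484894 had 28.41, 31.99 and 31.13 in perigonadal and 44.18, 60.84 and 52.10 in subcutaneous pools, a difference of -0.75 ± 0.09. Both passed, and in both the subcutaneous pools were the more scattered, with pool 2 highest. Ptpra, a widely expressed receptor phosphatase, had 53.23, 56.11 and 53.52 in perigonadal against 59.21, 65.53 and 58.48 in subcutaneous pools, a difference of -0.17 ± 0.09 that did not pass. Ptprcap is no phosphatase but a partner of CD45 in lymphocytes, and had 9.08, 8.47 and 7.99 in perigonadal and 7.88, 6.94 and 6.69 in subcutaneous pools. Its difference of 0.22 ± 0.08 did not pass, and of the 3 named leukocyte markers Fcer1g passed as higher (0.81), Itgam overlapped and the B cell marker Ms4a1 was lower in each perigonadal pool (-0.13, not passed). Their part in it was not tested.

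The metal-dependent phosphatases of the PPM family were Ppm1m and Ppm1d. Ppm1m had 24.01, 21.16 and 26.40 in perigonadal and 48.26, 42.22 and 38.03 in subcutaneous pools. All perigonadal pools were lower, by -0.82 ± 0.12, and that call was lost without pool pair 1 (-0.74). Ppm1d (Wip1), which is induced by p53 and acts on p38, had 33.29, 27.00 and 30.95 in perigonadal and 24.51, 22.24 and 25.08 in subcutaneous pools, a difference of 0.33 ± 0.09 that did not pass. By RefSeq, Ppm1m and Dusp7 are neighbours on chromosome 9 with 4 protein-coding genes between them, the closest pair of members. Map2k3 and Mapk7, whose differences had opposite signs, have 9 between them on chromosome 11.

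Ppp1r14a showed by far the largest difference of the set. It encodes CPI-17, an inhibitor of myosin light chain phosphatase that keeps smooth muscle contracted. Its intensity (probe set 10551736) was 29.22, 27.68 and 37.16 in perigonadal and 4.53, 5.15 and 3.82 in subcutaneous pools. The subcutaneous values were all below the medians of their arrays and the perigonadal values all above. Mean intensity was 6.97 times higher in perigonadal pools, and the log2 difference was 2.55 ± 0.15. Since the gene was dim in subcutaneous pools, this size depends on the pseudocount, from 1.20 with 16 to 2.80 with none.

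Most named smooth muscle and mesothelial markers were, like Ppp1r14a, higher in perigonadal pools. All of them had been selected by the authors' test for a depot difference. Of 11 pericyte and smooth muscle markers 6 had a name, and they summed to 111 to 146 in perigonadal and 62.3 to 88.0 in subcutaneous pools. Des, the muscle intermediate filament, averaged 54.9 ± 6.81 in perigonadal and 8.78 ± 2.47 in subcutaneous pools (SD, n = 3 each). Smooth muscle actin, Acta2, averaged 36.4 ± 12.8 in perigonadal and 12.3 ± 4.39 in subcutaneous pools. Myh11 and Tagln also passed as higher, by 0.74 and 0.50, whereas the pericyte channel genes Abcc9 and Kcnj8 passed as lower, at -2.07 and -0.92. Of 19 mesothelial markers 12 had a name, of which 11 passed as higher, against 4.05% of all probe sets and 22.1% of those in the authors' table. The other, Igfbp6, had a negative difference and did not pass (-0.35). The sum was 1021 to 1133 in perigonadal and 883 to 974 in subcutaneous pools. Most of it was Igfbp6, which alone averaged 675 in perigonadal and 857 in subcutaneous pools. Differences of the 11 that passed ran from 0.53 (Krt7) to 4.78 (Wt1). None of these markers was at 0. Their part in the Ppp1r14a difference was not tested.

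The relatives of Ppp1r14a did not share its direction. Ppp1r14b, which encodes another inhibitor of PP1 of the same family, had 2 probe sets with nearly the same values. Probe set 10461022 had 208.47, 226.22 and 214.92 in perigonadal and 325.96, 334.57 and 277.75 in subcutaneous pools. Probe set 10528143 had 206.32, 220.29 and 206.41 in perigonadal and 324.31, 325.75 and 268.26 in subcutaneous pools. All perigonadal pools were lower, by -0.52 ± 0.09 and -0.53 ± 0.09, and both calls were lost without pool pair 1 or 2 (-0.62 to -0.47 over all settings). Ppp1r14d overlapped between depots, was below the median on all 6 arrays and differed by -0.21.

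Ppp1r2 encodes inhibitor 2 of PP1 and had 3 probe sets. Probe set 10441509 had 362.54, 336.10 and 348.16 in perigonadal and 254.86, 241.26 and 255.30 in subcutaneous pools. Probe set 10540072 had 324.60, 341.73 and 346.32 in perigonadal and 234.80, 247.76 and 241.47 in subcutaneous pools. For probe set 10594636 the values were 326.21, 342.18 and 344.94 in perigonadal and 233.44, 245.98 and 242.92 in subcutaneous pools. The depots were apart in each probe set, with differences of 0.48 ± 0.08, 0.48 ± 0.08 and 0.49 ± 0.08, and these had the smallest spread over pool pairs among the members that passed. All 3 calls were nonetheless lost without pool pair 1 or 2, with values between 0.45 and 0.51 over all settings. A probe set outside the rule, named Gm5972 in the table and the pseudogene Ppp1r2-ps3 in RefSeq, differed by 0.49. Probe sets for such near-identical copies can bind the same RNA, so the Ppp1r2 and Ppp1r14b entries are not independent readings and their source gene is uncertain.

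Of the other PP1 subunits, Ppp1r15b, which directs PP1 to the translation factor eIF2 alpha, had differences of -0.42 ± 0.09 and -0.44 ± 0.09 in its 2 probe sets. Both passed, and the calls were lost in 8 and 4 of 14 other settings (-0.51 to -0.34 and -0.48 to -0.24, the last with a pseudocount of 16). For both these included leaving out pool pair 1 or 2, perigonadal pool 2 or subcutaneous pool 1, and for probe set 10349868 also perigonadal pool 1 or subcutaneous pool 2. The catalytic subunit gene Ppp1cb averaged 184 ± 7.28 in perigonadal and 160 ± 9.44 in subcutaneous pools, a difference of 0.20 that did not pass. Ppp1r10, a nuclear targeting subunit, differed by 0.19 and did not pass. Ppp1r3b, a glycogen-targeting subunit, and Ppp1r1a, inhibitor 1, overlapped between depots and differed by -0.19 and -0.10.

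PP2A is built from a catalytic subunit, a scaffold and one of many regulatory subunits, and its 4 members here were a scaffold and regulators from 3 families. Ppp2r2b, a B-family subunit best known from neurons, had 5.73, 5.34 and 5.25 in perigonadal and 10.91, 13.87 and 10.36 in subcutaneous pools. It was below the array median in all perigonadal pools and above it in all subcutaneous pools, with a difference of -0.97 ± 0.11 that passed and was -0.37 with a pseudocount of 16. The 3 named markers of Schwann cells, of 10 listed, had also been selected by the authors' test and were lower in perigonadal pools. They summed to 18.4 to 20.7 in perigonadal and 50.8 to 61.4 in subcutaneous pools, and none was at 0. Their part in the Ppp2r2b difference was not tested.

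Ppp2r1a, the common scaffold, had 139.29, 128.17 and 142.13 in perigonadal and 105.08, 104.18 and 106.34 in subcutaneous pools. The subcutaneous pools were nearly alike and the depots apart, by 0.37 ± 0.09. Ppp2r3a, a regulator of another family, had 16.69, 12.41 and 13.26 in perigonadal and 11.01, 9.66 and 9.95 in subcutaneous pools, a difference of 0.42 ± 0.09. Both passed, and each call was lost in 9 of 14 other settings (0.33 to 0.42 for Ppp2r1a and 0.20 to 0.51 for Ppp2r3a). For both these included leaving out pool pair 1 or 2, perigonadal pool 1 or 3, or any subcutaneous pool, and for Ppp2r1a also pool pair 3. The Ppp2r3a call was lost with no replicate block as well (0.42), and with a pseudocount of 16. Ppp2r5a, of the B56 family, overlapped between depots and differed by -0.07.

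Other genes of the MAP kinase pathway were read from a list of 94, of which 24 had a name here, through 25 probe sets that the authors' test had selected in the same way. Of the 25, 7 passed as higher, 10 as lower and 8 did not pass, with a median difference of -0.07. Without pool pair 1 the counts that passed as higher and lower were 3 and 3, and without pool pair 2 they were 5 and 4. Over the whole array 4.05% passed as higher and 5.47% as lower, against 22.1% and 29.6% of the probe sets selected by the authors. The 25 were selected on this contrast, so nothing is read from their counts. The largest difference was that of Mef2c, a transcription factor that p38 and ERK5 phosphorylate, at 8.44, 7.92 and 9.34 in perigonadal against 22.18, 19.95 and 21.74 in subcutaneous pools (-1.22 ± 0.09). Egr2, an immediate early transcription factor, averaged 343 ± 19.5 in perigonadal and 189 ± 21.3 in subcutaneous pools (0.86). Rasgrp2, an exchange factor for small GTPases of the Ras family, averaged 9.76 ± 0.656 in perigonadal and 4.95 ± 0.325 in subcutaneous pools (0.86). Elk3, an Ets factor that ERK phosphorylates, averaged 58.9 ± 4.97 in perigonadal and 36.1 ± 1.64 in subcutaneous pools (0.69). Met, the HGF receptor, averaged 5.08 ± 0.830 in perigonadal and 9.06 ± 0.545 in subcutaneous pools (-0.73). Mknk2, a kinase below ERK and p38, averaged 17.1 ± 1.55 in perigonadal and 28.5 ± 4.14 in subcutaneous pools (-0.69).

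By role on that list, chosen after the values were seen, the 4 named growth factor receptors all had negative differences, and Met, Pdgfrb (-0.47) and Egfr (-0.41) passed while Fgfr1 (-0.35) did not. The named Sprouty and Spred genes, feedback inhibitors of the ERK arm, had positive ones, and Spry4 (0.57) and Spry1 (0.50) passed while Spred1 (0.31) did not. Pdgfra, Spry2, Spry3, Spred2 and Spred3 were also listed but had no name here. The shared signs thus hold only for genes that the authors' test had selected. Of the Gadd45 genes, whose products bind a kinase above p38 and JNK, Gadd45b passed as higher (0.56), Gadd45g as lower (-0.62) and Gadd45a (0.31) did not pass.

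**Figure D3:**
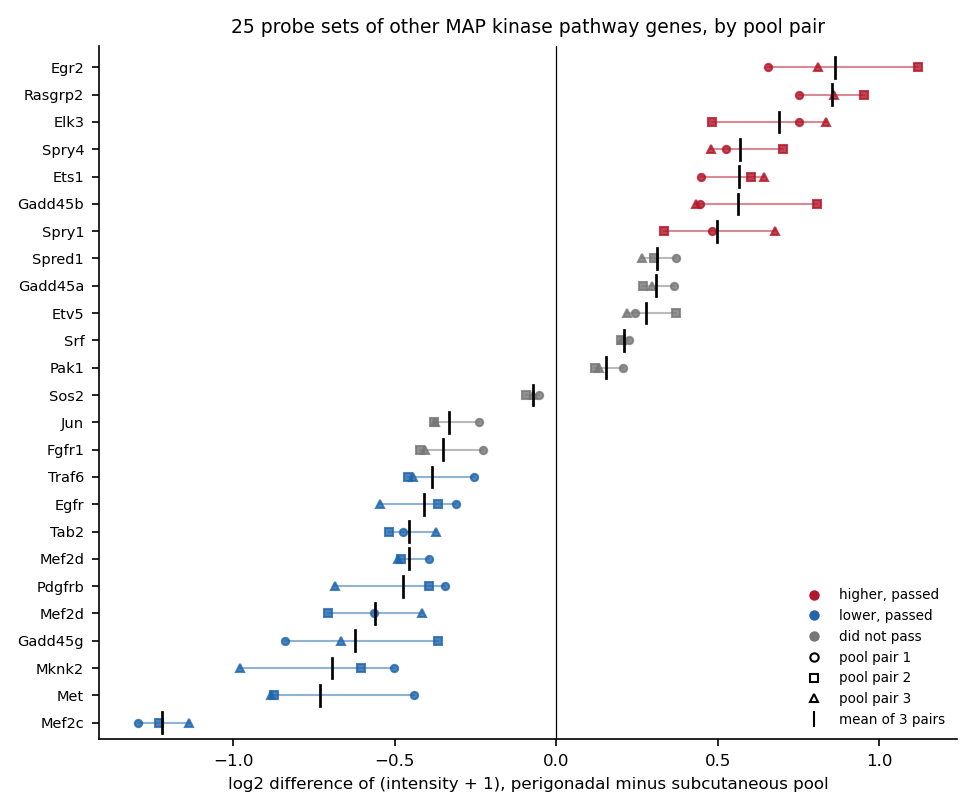
Log2 difference of (intensity + 1), perigonadal minus subcutaneous pool (horizontal axis), for the 25 named probe sets of other MAP kinase pathway genes. Circles, squares and triangles are pool pairs 1, 2 and 3, the black tick is their mean, and red, blue and grey mark probe sets that passed as higher, passed as lower or did not pass. Egr2 and Rasgrp2 are at the top at 0.86 and Mef2c is at the bottom at -1.22.

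The size of the differences varied between pool pairs. Among the 14 members that passed as lower, pool pair 3 had the smallest absolute difference in 8 and the largest in none. Over the 14 the median was -0.54 in pair 3 against -0.65 and -0.61 in pairs 1 and 2. The 8 hold both probe sets of Ppp1r14b and both of Ppp1r15b, so they are not 8 separate genes. Over all 43 members no such pattern was seen, as pair 3 had the smallest absolute difference in 16 and the largest in 14. Among the 10 that passed as higher, the pair medians were 0.57, 0.47 and 0.50 in pairs 1 to 3. Of the 24 members that passed, 9 probe sets of 8 genes did so in each of 14 other limma settings: Ppp1r14a, Dusp6, Dusp7, Dusp10, Mapkapk3, Mapk12, Ppp2r2b and both probe sets of Ptprj. The smallest absolute difference among these was 0.58, that of Mapk12. All 14 settings refit arrays that had chosen the members, so they are no independent support. With the methods' paired test, 0 members passed the Benjamini-Hochberg adjustment.

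In the authors' deposited table the members' unadjusted p-values ran from 0.000339 for a Ppp1r2 probe set to 0.0421 for Map2k3. Map2k3 and Ptpn2 (0.0416 in the authors' deposited table) were the members nearest the limit of 0.05. Probe sets beyond that limit have no gene name here and were not analysed.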

How the data were processed

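Gene expression was measured on 6 Affymetrix arrays, 1 per pool of sorted cells. The deposited value table gives 1 normalized intensity per probe set on a linear scale, as its log2 values average to the authors' deposited means. Partek was used, per the submitters' processing notes; how background was corrected and arrays were normalized is not given in the sources used. Per the file headers, the authors' table gives log2 means and their difference, a ratio, a signed fold score, a t score and an unadjusted p-value of a paired test. The values show that it was limited to a p-value below 0.05.

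All 43 member probe sets matched the value table. Differences were fitted in R 4.3.3 by lmFit and eBayes of limma 3.58.1 (pool number as a fixed block, pseudocount 1, no filter) over all 23531 probe sets, with 2 residual degrees of freedom, a prior worth 5.24 and Benjamini-Hochberg adjustment. The fit was tested on simulated data. The number of arrays limits the precision, and p-values reflect only how these pools, which the labels call independent, vary.

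The members and gene lists were chosen with earlier results of these data known. Genes had a name only through the authors' table, updated through RefSeq (GRCm38.p6). Pool values are given for members with an absolute log2 difference of at least 1 and for the 3 with the largest in each role. PP1 and PP2A subunits were taken as separate roles. Of the pathway list, the 6 genes with the largest differences are named. The alternatives were other pseudocounts, a filter, quantile normalization, no block, single pools or pairs left out, and the methods' paired test.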

Additional observations from a re-analysis of the deposited data

How the results depend on the processing

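The authors' test picked members whose 3 pool pairs all differ one way, so their signs in other settings say nothing of stability. Of 14 other limma settings (13 for Ppp1r14d, Ppp1r1a and Ppp1r3b, which the intensity filter left out), those that turned a sign were for Ppp2r5a with quantile normalization (0.009) and for Ppp1r1a without subcutaneous pool 1 (0.005, and -0.183 to 0.005 over all fits that leave out a pool or pair), neither of which passed. Of 24 members that passed, 15 lost the call in at least 1 setting, and 10 of the 19 others gained one in at least 1. Leaving out pool pairs or arrays gave 9 to 22 members called and 6 to 15 of the pathway probe sets, against 24 and 17, and medians of -0.163 to -0.035. Fits without a pool pair have fewer samples, and those without 1 array also have no replicate block. With no replicate block 23 members passed (9 higher, 14 lower) and 19 pathway probe sets, with the calls of Mapk7 and Ppp2r3a lost and that of Map3k10 gained. With quantile normalization 14 passed as higher and 12 as lower, against 10 and 14. With 1 entry per gene, chosen after seeing the data, 19 of 38 genes passed, with a median of -0.081.

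The member median was -0.047 with a pseudocount of 16 and 0.001 among the 40 probe sets above the median intensity, where dim probe sets had been left out. With the methods' paired test, which takes the spread of each probe set from its 3 pairs alone, 0 members and 0 pathway probe sets passed the Benjamini-Hochberg adjustment, while 43 and 25 were below the unadjusted limit that had chosen them. The block follows that test: paired by number, it gave a p within 10% of the authors' for 43 of 43 members. Pools that share a number deviated from the mean of their depot only weakly together (correlations of 0.17, 0.16 and 0.05 over probe sets, which are not replicates). Pools of different numbers gave lower correlations, from -0.17 to 0.02. All of these are small, and the values alone do not settle whether the pools are paired. Dim probe sets, such as Ppp1r14d, Ppp1r1a and Ppp1r3b, are limited by signal close to the array median or below it.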
